A study of Mus musculus with 36 samples.

Results

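The CCN genes encode secreted matricellular proteins, which sit in the extracellular matrix and act on cells rather than building the matrix. The 4 genes described here, Ccn1 (older name Cyr61), Ccn2 (Ctgf), Ccn4 (Wisp1) and Ccn5 (Wisp2), were found by symbol among the 32285 mouse gene IDs of the table. The family has 6 genes, and the other members, Ccn3 and Ccn6, were scarce in most libraries. The RNA came from cultures of AT-3 and E0771, 2 mouse lines of breast cancer. AT-3 goes back to a tumour of the MMTV-PyMT mouse, in which a viral oncogene is driven in the mammary gland, and E0771 to an adenocarcinoma of the mammary gland. Cells of each line received DMSO, 10 µM NS11021, 10 µM BMS204352, 40 mM KCl, KCl with NS11021 or KCl with BMS204352 for 24 h, with 3 libraries in each of the 12 groups. NS11021 opens the BK potassium channel, and BMS204352 opens BK and KCNQ channels. The libraries are unsorted bulk cultures of 1 line each, and the KCl groups had no partner matched for osmolarity or chloride.

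CCN1 and CCN2 bind integrins and heparan sulfate proteoglycans, and their genes are textbook targets of 2 transcription routes. In the first, YAP and TAZ enter the nucleus and bind TEAD factors. In the second, the coactivator MRTFA is released from actin monomers and binds SRF. CCN2 is also induced by TGF-beta and is a common marker of fibrosis. CCN4 was found as a target of Wnt signalling in mammary cells. CCN5 lacks the C-terminal cystine-knot domain that its relatives carry, and it is often described as opposing CCN2. The series title concerns expression driven by MRTFA and SRF, cell stiffness and potassium.

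On GRCm38 (GENCODE vM21), Ccn1 lies at chr3:145646976-145649981 on the minus strand, with 2019 exon bases. Ccn2 lies at chr10:24595442-24598683 on the plus strand, with 2861 exon bases. Ccn4 lies at chr15:66891320-66923201 on the plus strand, with 5565 exon bases, and Ccn5 at chr2:163820861-163833146 on the plus strand, with 1924. The longest coding sequence of Ccn5 spans 251 residues, against 379 in Ccn1, 348 in Ccn2 and 367 in Ccn4, so the annotation shows the shorter protein. Of the exon bases of Ccn2, 23.2% overlap the antisense gene model Gm15270, and the counting strand is not given in the sources used here. Gm15270 had at most 10 counts in any library, while Ccn2 had 30 to 6266.

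The RefSeq promoter table (GRCm38.p6) held an entry for 1 of the 4 genes, Ccn1. Its last 150 bases before the transcription start are shown because it was the one CCN promoter in that table and holds a TEAD-type word. The sequence runs 5′ to 3′ on the minus strand, chr3:145649986-145650135, with 2 words in capitals: CATTCC, the reverse complement of the TEAD word GGAATG, and TATAAA.
Ccn1 promoter: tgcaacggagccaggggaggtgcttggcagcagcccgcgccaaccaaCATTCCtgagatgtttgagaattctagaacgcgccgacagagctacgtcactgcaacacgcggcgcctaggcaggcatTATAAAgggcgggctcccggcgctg
The TEAD word starts 103 bases before the start, and 14.7% of 32841 promoter windows of the same 300-base length hold GGAATG on either strand. TATAAA starts 25 bases before the start and is in 8.32% of windows on the gene strand. The CRE core word TGACG, searched on both strands, starts 58 bases before the start and is in 20.8% of windows. The SMAD word GTCTG, searched on both strands, is in 49.6% of windows and had 1 match, outside the bases shown. The SRF-type CArG word, searched on both strands, had 0 matches in the 300-base Ccn1 window and is in 1.63% of windows. The AP-1 word TGANTCA, searched likewise, had 0 matches and is in 7.81%. These are matches of letters only, and the matches do not overlap one another.

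Library totals ran from 38.5 to 52.6 M counts in AT-3 and from 31.2 to 47.9 M in E0771. AT-3 expressed the epithelial markers Krt14, Cdh1, Krt5 and Epcam at 1449, 449.9, 153 and 122 CPM (counts scaled by library size to a common total of 1 M) in DMSO. Krt18 stood at 21.4 CPM there, but Krt8 at only 0.35 CPM. E0771 had 202 CPM of Krt8 but under 1 CPM of Epcam, Krt18, Krt5 and Krt14, so most of the epithelial markers were at or near 0 there. Summed over 10 genes, fibroblast markers came to 69.2 to 77.2 CPM in AT-3 and 292 to 327 CPM in E0771 DMSO libraries, with Dcn, Lum and Thy1 at 0 counts in all 18 E0771 libraries. Leukocyte markers summed to 4.65 to 6.12 and 10.3 to 11.2 CPM, with Ptprc under 1 CPM in every library. The BMS204352 library numbered 3 stood apart in AT-3, at 65.9 on the first principal component against 17.2 and 22.1 for its partners, and the KCl+BMS204352 library numbered 3 did too (30.1 against −3.16 and 1.30). In E0771 the BMS204352 library numbered 3 lay at 30.2 on the third component against 3.37 and −1.07. In bulk RNA, fewer cells of a type and less RNA per cell cannot be told apart. The labels do not say whether the 3 libraries of a group came from separate cultures, so p-values measure the spread between these libraries.

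All 4 genes were expressed more in AT-3 than in E0771. In DMSO, Ccn1 stood at 150, 113 and 160 CPM in AT-3 and at 31.2, 33.2 and 30.7 CPM in E0771. Ccn2 stood at 72.7, 44.4 and 70.1 CPM against 6.90, 5.29 and 6.00 CPM. Every AT-3 library lay above every E0771 library for each of the 4 genes. Ccn4 stood at 231, 196 and 243 CPM against 42.3, 36.3 and 41.2 CPM, and Ccn5 at 50.2, 45.6 and 53.4 CPM against 3.51, 3.08 and 2.88 CPM. The difference was largest for Ccn5, which was 15.7-fold lower in E0771 (log2 −3.97 ± 0.12 SE), followed by Ccn2 at 10.3-fold (−3.36 ± 0.27), Ccn4 at 5.59-fold (−2.48 ± 0.12) and Ccn1 at 4.46-fold lower (−2.16 ± 0.24). All 4 passed edgeR's quasi-likelihood test at an adjusted p below 0.05, the threshold used throughout, with adjusted p values between 2.46e-25 and 1.26e-08. That comparison called 74.5% of the genes tested, so a call alone sets these genes apart little.

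Scaled to exon length, the makeup of the family also differed between the lines. Ccn1 led in both, with 44.2 ± 1.12% of the summed CPM per kilobase of the 4 genes in AT-3 DMSO libraries and 59.0 ± 2.94% in E0771 (SD, n = 3). Ccn4 gave 25.6 ± 1.20% and 26.9 ± 1.97%. Ccn2 gave 13.7 ± 1.67% in AT-3 and 7.94 ± 0.917% in E0771, and Ccn5 16.5 ± 1.42% and 6.15 ± 0.489%. The length-scaled total was 158 ± 23.9 CPM per kilobase in AT-3 and 26.7 ± 0.584 in E0771.

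**Figure D1:**
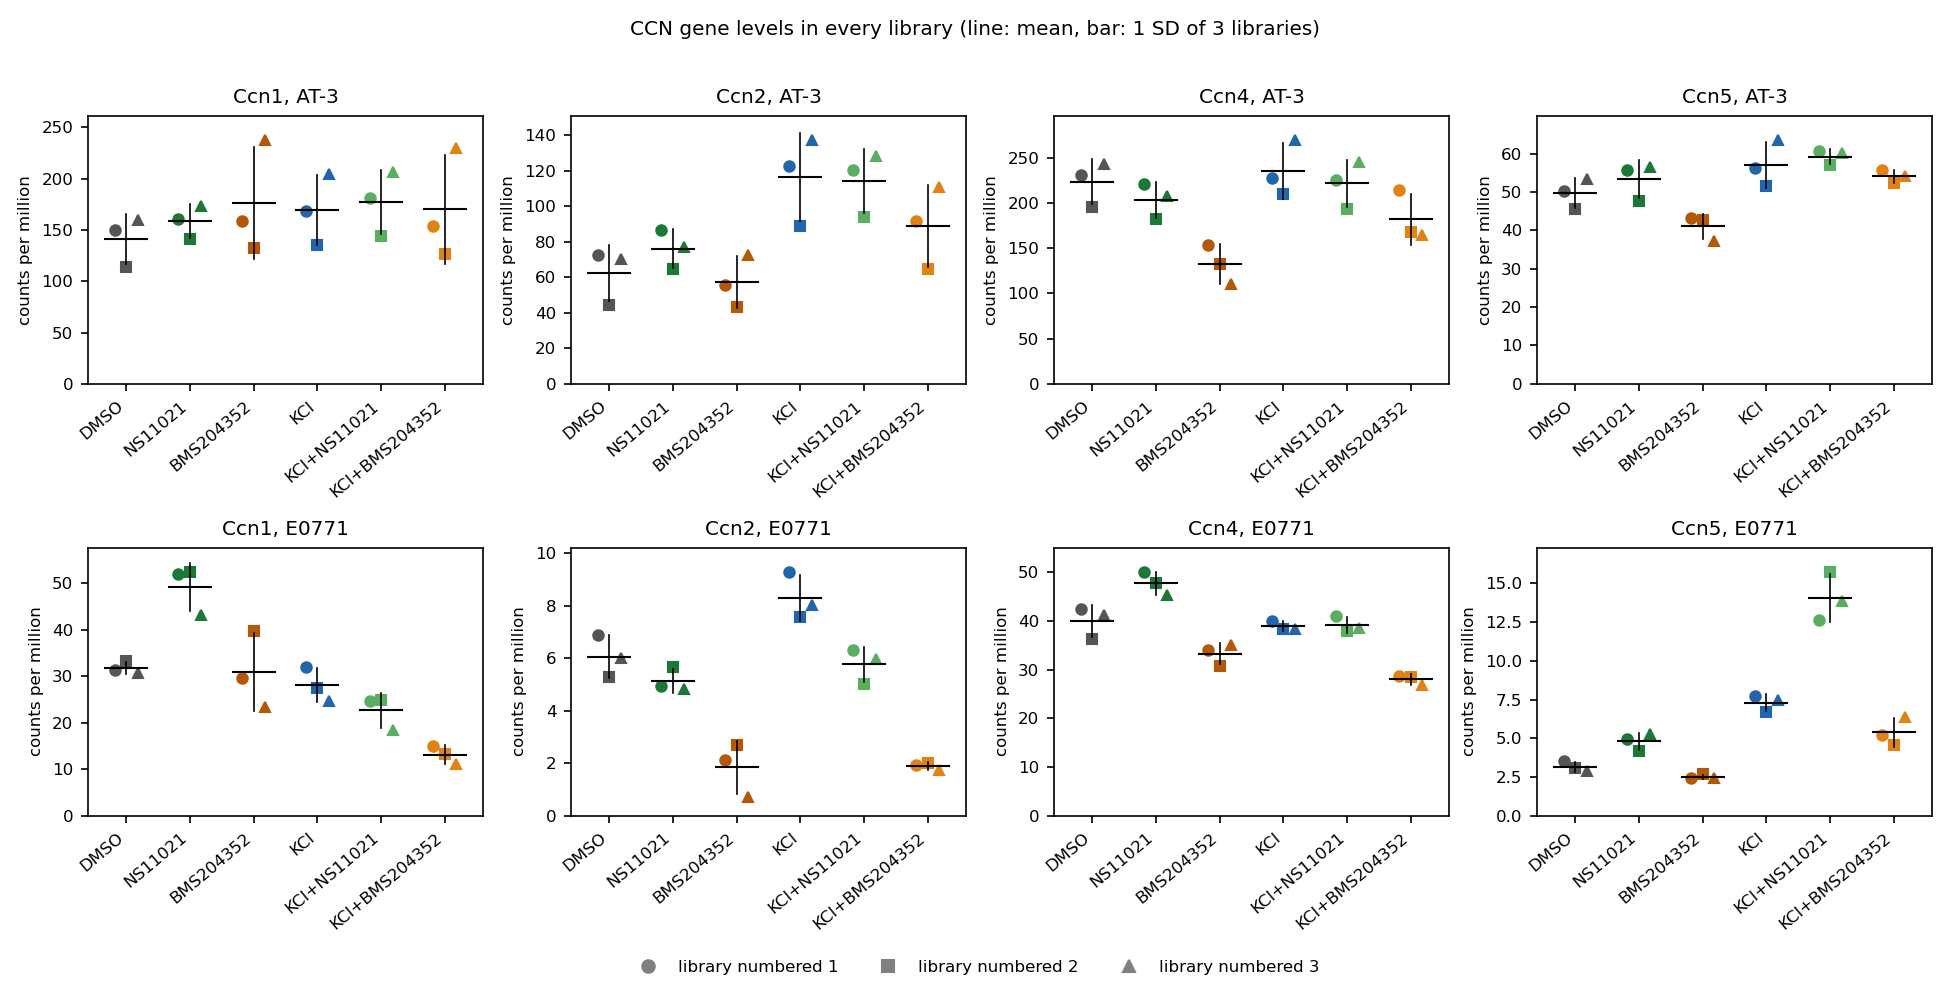
CPM of the 4 CCN genes (vertical axes, from 0) in each of the 36 libraries by treatment (horizontal axes), AT-3 in the upper row and E0771 in the lower; markers show the library number, lines the mean and bars 1 SD of 3 libraries. Ccn5 in E0771 runs from 2.43 CPM with BMS204352 to 15.7 CPM with KCl+NS11021, and Ccn2 in E0771 falls to 0.710 CPM in a BMS204352 library.

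The largest rises from DMSO among the 4 genes were those of Ccn5 in E0771 cells given KCl. Ccn5 had 7.72, 6.67 and 7.45 CPM with KCl, against 3.51, 3.08 and 2.88 CPM with DMSO, a rise of 2.32-fold (log2 1.21 ± 0.15, edgeR adjusted p = 1.66e-07). With KCl and NS11021 together it had 12.6, 15.7 and 13.8 CPM, 4.49-fold above DMSO (2.17 ± 0.15, edgeR adjusted p = 1.13e-12). Adding NS11021 to KCl thus raised Ccn5 1.93-fold over KCl alone (0.95 ± 0.14, edgeR adjusted p = 2.07e-05), and the libraries of these groups did not overlap. NS11021 without KCl gave 4.96, 4.20 and 5.26 CPM, 1.52-fold above DMSO (0.60 ± 0.16, edgeR adjusted p = 0.00427). The interaction of KCl and NS11021, which asks whether the joint change differs from the sum of the log2 changes, was 0.35 ± 0.21 with a 95% interval from −0.08 to 0.78, and did not pass (edgeR adjusted p = 0.648). Markers of other cell types also differed in these E0771 groups. The 8 leukocyte markers summed to 4.94 to 6.67 CPM with KCl and 10.5 to 11.5 CPM with KCl+NS11021, against 10.3 to 11.2 CPM with DMSO. Of the 3 tested, 1 was higher and 2 lower with KCl, and 2 were higher and 1 lower with KCl+NS11021, with Ptprc under 1 CPM and Adgre1 at 0 counts. The 6 endothelial markers summed to 3.54 to 6.76 and 4.38 to 6.62 CPM against 1.501 to 1.903 CPM, and both of the 2 tested, Pecam1 and Vwf, were higher in each group, with Emcn at 0 counts and Cdh5 under 1 CPM. The part of these markers in the Ccn5 values was not tested.

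BMS204352 did not raise Ccn5 in E0771. Its libraries had 2.43, 2.68 and 2.46 CPM, all below the DMSO range, but the change of −0.32 ± 0.17 did not pass (edgeR adjusted p = 0.168). With KCl and BMS204352 the level was 5.23, 4.56 and 6.37 CPM, above every DMSO library and below every KCl library. That was 1.71-fold above DMSO (0.77 ± 0.16, edgeR adjusted p = 0.000292) and 1.36-fold below KCl alone (−0.44 ± 0.15, edgeR adjusted p = 0.0305). The difference from KCl alone lost its call without KCl replicate 1 (adjusted p = 0.114) or 3 (0.0833), or without KCl+BMS204352 replicate 1 (0.0831) or 2 (0.153). Set in order, Ccn5 fell from KCl+NS11021 to KCl, KCl+BMS204352, NS11021, DMSO and BMS204352, and only KCl+BMS204352 and NS11021 overlapped with their neighbour in that order.

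No change of Ccn5 from DMSO passed in AT-3. DMSO libraries had 50.2, 45.6 and 53.4 CPM and KCl libraries 56.3, 51.6 and 63.6 CPM, a change of 0.21 ± 0.09 that did not pass (edgeR adjusted p = 0.194). KCl+NS11021 gave 60.8, 57.0 and 60.1 CPM, all above the DMSO libraries, with a change of 0.26 ± 0.09 (edgeR adjusted p = 0.0829) that passed without the 4 BMS204352 libraries numbered 3 (0.0338) and with only the libraries compared (0.0267). BMS204352 gave 43.1, 42.7 and 37.4 CPM, all below DMSO, a change of −0.27 ± 0.09 that did not pass (edgeR adjusted p = 0.0735) but did with DESeq2 (0.0416) and without BMS204352 replicate 1 (0.0406). The KCl+NS11021 and BMS204352 changes also passed with a replicate block, a term for library number in the fit (edgeR adjusted p = 0.0212 and 0.024). The rise with KCl was larger in E0771 than in AT-3 by 0.9995 ± 0.16 on the log2 scale (edgeR adjusted p = 4.13e-05 in the fit of all 36 libraries), where 9.14% of genes differed between the lines. The effect of NS11021 on Ccn5 differed by 0.48 ± 0.16, which did not pass by edgeR (adjusted p = 0.0811) but did without the 4 BMS204352 libraries numbered 3 (0.0302). No CCN gene passed for a line difference in the effect of NS11021 by edgeR, where 3.99% of all genes did. At an unadjusted p below 0.05 the count was 2, and DESeq2 called 1, Ccn5 (adjusted p = 0.0416). Over all genes DESeq2 called 1031 there, against 637 by edgeR.

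**Figure D2:**
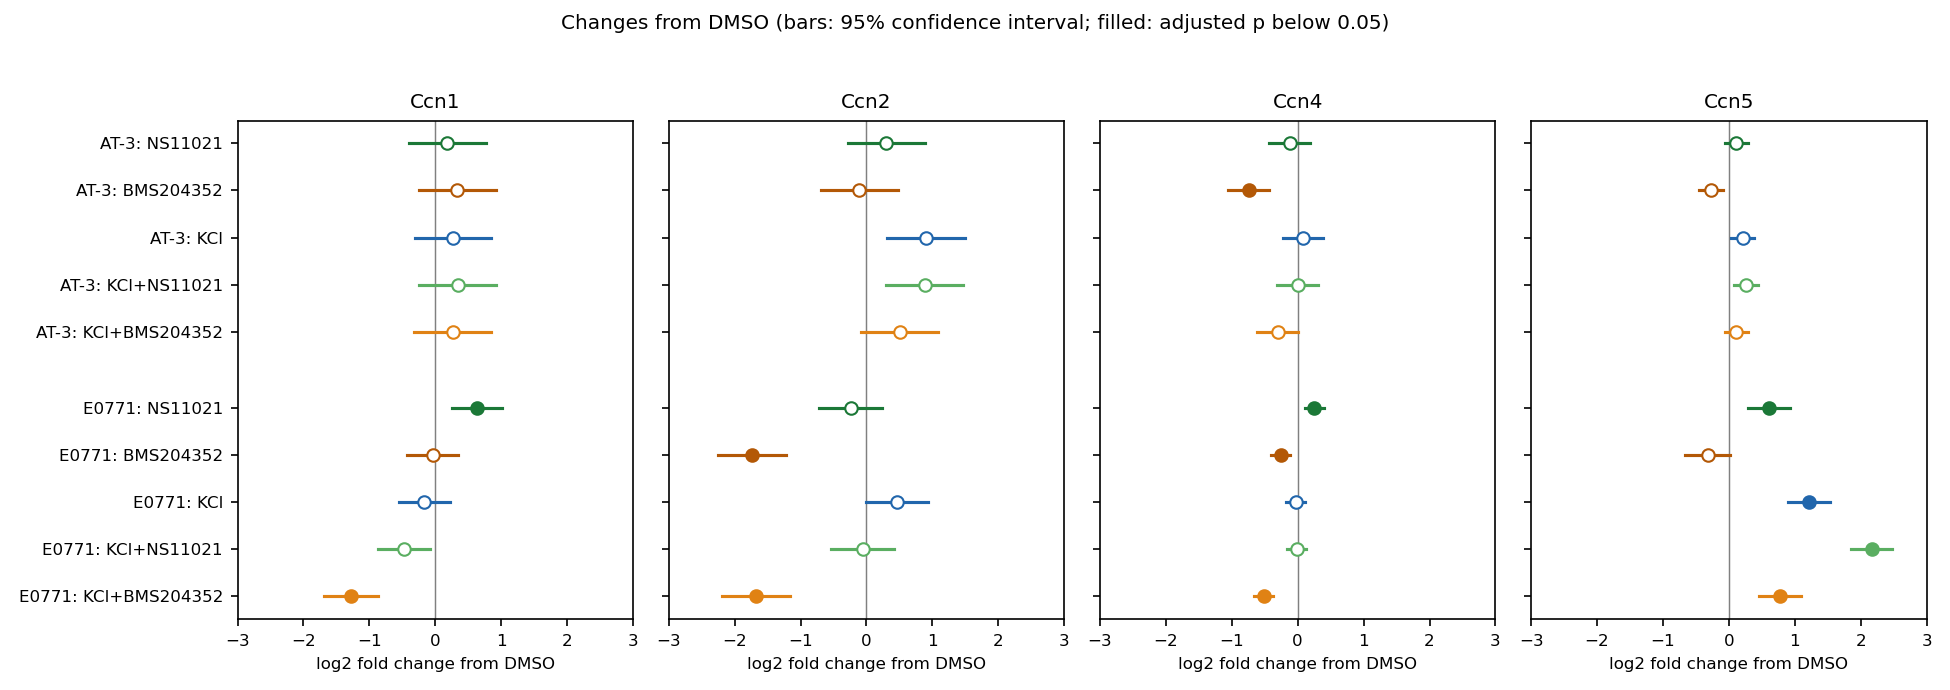
Log2 fold change from DMSO (horizontal axes) of each CCN gene for 5 treatments in each line, with 95% confidence intervals; filled points passed the threshold in edgeR's test. Most of the filled points are in E0771, and in AT-3 the one filled point is Ccn4 with BMS204352 (−0.74).

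Ccn2, the gene best known as a YAP and TEAD readout, was most strongly lowered by BMS204352 in E0771. DMSO libraries had 6.90, 5.29 and 6.00 CPM and BMS204352 libraries 2.13, 2.68 and 0.710 CPM, which do not overlap. Ccn2 fell 3.33-fold (log2 −1.74 ± 0.25, edgeR adjusted p = 2.59e-05). The lowest value belongs to the library that stood apart, numbered 3, which had 30 counts of Ccn2. With KCl present the levels were 9.28, 7.57 and 8.02 CPM for KCl alone and 1.95, 2.02 and 1.74 CPM for KCl+BMS204352. Ccn2 was thus 4.40-fold lower than with KCl alone (−2.14 ± 0.25, edgeR adjusted p = 1.29e-06) and 3.20-fold lower than with DMSO (−1.68 ± 0.25, edgeR adjusted p = 1.44e-05). These falls kept their call under each alternative tried.

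NS11021 left Ccn2 at 4.93, 5.66 and 4.82 CPM in E0771, a change of −0.24 ± 0.23 (95% interval −0.72 to 0.23). Set directly against BMS204352, NS11021 gave 2.82-fold more Ccn2 (1.49 ± 0.26, edgeR adjusted p = 0.00199), and KCl+NS11021 gave 3.07-fold more than KCl+BMS204352 (1.62 ± 0.25, edgeR adjusted p = 0.000182). KCl alone placed all 3 libraries above the DMSO range, but the rise of 0.46 ± 0.23 did not pass (edgeR adjusted p = 0.117). It passed without a filter on low counts (adjusted p = 0.03), without the 4 BMS204352 libraries numbered 3 (0.0127) and with only the libraries compared (0.00756). KCl+NS11021 gave 6.30, 5.02 and 5.98 CPM, below every KCl library, a change from KCl of −0.52 ± 0.23 (edgeR adjusted p = 0.123) that passed under the same 3 settings (0.0243, 0.0106 and 0.00525).

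In AT-3 the highest Ccn2 levels were in the KCl groups. DMSO libraries had 72.7, 44.4 and 70.1 CPM, KCl libraries 123, 88.9 and 137 CPM and KCl+NS11021 libraries 121, 94.0 and 128 CPM. Neither KCl group overlapped with DMSO, yet the changes of 0.90 ± 0.27 and 0.88 ± 0.27 did not pass (edgeR adjusted p = 0.0842 and 0.0862). DESeq2 called both (adjusted p = 0.0139 and 0.0171), as did edgeR without the 4 BMS204352 libraries numbered 3 (0.0475 and 0.0462). KCl+BMS204352 gave 91.4, 64.6 and 111 CPM, which overlapped with DMSO (0.51 ± 0.27, edgeR adjusted p = 0.246). The library numbered 2 was the lowest of its group for Ccn1 and for Ccn2 in 6 of 6 AT-3 groups. With a replicate block Ccn2 passed for KCl, KCl+NS11021 and KCl+BMS204352 (edgeR adjusted p = 6.74e-06, 8.18e-06 and 0.0012). No label says that a number marks a shared culture or day.

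BMS204352 alone gave 55.7, 43.4 and 72.7 CPM of Ccn2 in AT-3, a change of −0.11 ± 0.27 whose 95% interval ran from −0.69 to 0.47. The fall in E0771 was larger than that in AT-3 by 1.65 on the log2 scale (−1.65 ± 0.43, edgeR adjusted p = 0.0217, in a comparison that called 5% of genes). That difference lost its call without the 4 BMS204352 libraries numbered 3 (−0.9995 ± 0.41, adjusted p = 0.224) and with only the libraries compared (0.168). It was also lost without E0771 DMSO replicate 1 (0.0662), AT-3 DMSO replicate 2 (0.0502), AT-3 BMS204352 replicate 3 (0.0688) or E0771 BMS204352 replicate 3 (−1.22 ± 0.41, 0.105).

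Ccn1, the other classic target of YAP and of SRF, moved in opposite directions in E0771 depending on the treatment. DMSO libraries had 31.2, 33.2 and 30.7 CPM, and NS11021 libraries 52.1, 52.4 and 43.3 CPM. Ccn1 rose 1.55-fold with NS11021 (log2 0.63 ± 0.18, edgeR adjusted p = 0.0176). That call was lost without DMSO replicate 1 (adjusted p = 0.0569) or 3 (0.057) or NS11021 replicate 1 (0.0515) or 2 (0.0615), while the change stayed between 0.58 and 0.73 with any single library left out. BMS204352 gave 29.6, 39.8 and 23.3 CPM, around the DMSO values, with a change of −0.04 ± 0.18.

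With KCl the direction for NS11021 was no longer upward. KCl libraries had 32.0, 27.5 and 24.8 CPM and KCl+NS11021 libraries 24.7, 24.9 and 18.4 CPM, the latter all below DMSO. Against DMSO the change with KCl+NS11021 was −0.47 ± 0.18, just short of the threshold (edgeR adjusted p = 0.056). It passed with DESeq2 (adjusted p = 0.0324), a filter of 1 CPM in 3 libraries (0.0456), only the libraries compared (0.000171) and without the 4 BMS204352 libraries numbered 3 (0.0175). A replicate block also called it (edgeR adjusted p = 0.00029). KCl+BMS204352 libraries had 15.02, 13.3 and 11.05 CPM, the lowest of any group. Ccn1 fell there 2.42-fold from DMSO (−1.28 ± 0.19, edgeR adjusted p = 0.000176) and 2.16-fold from KCl alone (−1.11 ± 0.19, edgeR adjusted p = 0.00101).

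The departure of Ccn1 from additivity in E0771 was sizeable but did not pass. The interaction of KCl and BMS204352 was −1.07 ± 0.26 (edgeR adjusted p = 0.06), and that of KCl and NS11021 was −0.94 ± 0.26 (edgeR adjusted p = 0.217). DESeq2 called both (adjusted p = 0.00415 and 0.0391), and so did edgeR without the 4 BMS204352 libraries numbered 3 (0.0219 and 0.0324). The first also passed without BMS204352 replicate 2 (0.0406) or 3 (0.0134), and the second with only the libraries compared (0.0106). Both passed with a replicate block (edgeR adjusted p = 7.82e-05 and 0.000992). By edgeR 0 of the 4 genes passed either interaction, against 1.62% and 0.217% of all genes, and at an unadjusted p below 0.05 the count was 2 in each. Over all genes DESeq2 called 406 and 96, against 217 and 29 by edgeR. In AT-3 edgeR called 0% of all genes for either interaction, and 0 of the 4 CCN genes had an unadjusted p below 0.05 or passed by DESeq2.

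In AT-3 the Ccn1 libraries of the treatments overlapped with those of DMSO. DMSO libraries had 150, 113 and 160 CPM, NS11021 libraries 161, 141 and 174, and BMS204352 libraries 159, 132 and 238 CPM. KCl libraries had 169, 135 and 204 CPM, KCl+NS11021 libraries 181, 145 and 206, and KCl+BMS204352 libraries 153, 127 and 230 CPM. All 6 groups overlapped with their neighbours in order of level. The library numbered 2 was the lowest and that numbered 3 the highest in 6 of 6 groups. Compared by number, each treated library lay above the DMSO library of its number, though all treatments share those DMSO libraries. With a replicate block Ccn1 passed for KCl+NS11021 (0.34 ± 0.10, edgeR adjusted p = 0.0468), but no label ties libraries by number. The changes from DMSO lay between 0.18 and 0.34 with an SE of 0.27 (edgeR adjusted p = 0.52 to 0.923), and the 95% interval for BMS204352 ran from −0.25 to 0.92.

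Ccn4, a family member linked to Wnt signalling, was lower with BMS204352 in both lines. In AT-3, DMSO libraries had 231, 196 and 243 CPM and BMS204352 libraries 154, 133 and 110 CPM, with no overlap. Ccn4 fell 1.68-fold (log2 −0.74 ± 0.15, edgeR adjusted p = 0.0118) and was the one CCN gene called there. The call was lost without BMS204352 replicate 3 (−0.63 ± 0.16, adjusted p = 0.0861) or DMSO replicate 3 (0.0657), without the 4 BMS204352 libraries numbered 3 (0.0774) and with only the libraries compared (0.0902). In E0771, DMSO libraries had 42.3, 36.3 and 41.2 CPM and BMS204352 libraries 33.9, 30.8 and 35.1 CPM, again without overlap. The fall there was 1.20-fold (−0.26 ± 0.07, edgeR adjusted p = 0.00848), and it lost its call without DMSO replicate 1 (0.0694) or BMS204352 replicate 2 (0.0617) and with only the libraries compared (0.0503). The difference between the lines, 0.48 ± 0.16, did not pass by edgeR (adjusted p = 0.0867) but did by DESeq2 (0.0337) and without AT-3 BMS204352 replicate 1 (0.0143) or AT-3 DMSO replicate 2 (0.0425). It passed with a replicate block too (edgeR adjusted p = 0.0233). The summed leukocyte markers were 8.86 to 22.6 CPM in AT-3 BMS204352 libraries against 4.65 to 6.12 CPM in DMSO, and 15.9 to 16.1 against 10.3 to 11.2 CPM in E0771. Most of it was Cd68, with Ptprc and Cd3e at 0 in AT-3 and under 1 CPM in E0771, and the part of these markers in the Ccn4 falls was not tested.

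NS11021 raised Ccn4 in E0771 to 50.03, 47.7 and 45.3 CPM, 1.19-fold above DMSO (0.25 ± 0.07, edgeR adjusted p = 0.00722), a call lost without DMSO replicate 2 (0.19 ± 0.07, adjusted p = 0.0697). KCl gave 40.0, 38.2 and 38.4 CPM and KCl+NS11021 41.1, 38.0 and 38.5 CPM, both overlapping with DMSO, with 95% intervals from −0.17 to 0.12 and from −0.16 to 0.13. KCl+BMS204352 gave 28.7, 28.5 and 26.7 CPM, below every other group, 1.43-fold under DMSO (−0.51 ± 0.07, edgeR adjusted p = 1.91e-06) and 1.40-fold under KCl (−0.49 ± 0.07, edgeR adjusted p = 1.15e-05). In AT-3, NS11021 gave 221, 182 and 208 CPM, KCl 227, 209 and 269, KCl+NS11021 225, 194 and 246, and KCl+BMS204352 214, 167 and 164 CPM. Each of those 4 groups overlapped with DMSO, and none passed.

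Counted by treatment, the share of CCN genes called has to be read against the share of all genes called. In AT-3, edgeR called 0 of 4 with KCl (4.83% of all genes), 0 with NS11021 (0.0745%), 1 with BMS204352 (5.27%), 0 with KCl+NS11021 (5.03%) and 0 with KCl+BMS204352 (13.1%), each against DMSO. At an unadjusted p below 0.05 the 4 counts of 0 became 2, 0, 2 and 0, in the order KCl, NS11021, KCl+NS11021 and KCl+BMS204352, and DESeq2 called 1, 0, 1 and 0. Over all genes DESeq2 called 1031, 70, 1125 and 2456 in that order, against 714, 11, 743 and 1941 by edgeR. Counts over all genes at an unadjusted p are not given in this text. In E0771, edgeR called 1 with KCl (36.4% of all genes), 3 with NS11021 (26.3%), 2 with BMS204352 (22.7%), 1 with KCl+NS11021 (38.6%) and 4 with KCl+BMS204352 (28.6%). With KCl the single call, Ccn5, is a smaller share than that over all genes. With KCl+BMS204352 the 4 genes did not share a direction, since Ccn5 was higher and the other 3 lower. Mitochondrial transcripts were 0.789 to 1.03% of counts in E0771 KCl+BMS204352 libraries, against 0.626 to 0.720% in DMSO and 0.678 to 0.739% in KCl, and the part of this in the CCN falls was not tested.

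Against KCl, the addition of BMS204352 lowered all 4 CCN genes in E0771 (19.9% of all genes called). The addition of NS11021 raised Ccn5 alone (17.2% of all genes called). In AT-3 neither addition moved a CCN gene past the threshold (1.24% of all genes called with BMS204352 and 0.0203% with NS11021). There, 1 gene, Ccn4, had an unadjusted p below 0.05 with BMS204352 and none did with NS11021, and DESeq2 called 0 in both.

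The compounds were compared directly at the same dose and time, with p-values adjusted over all genes tested. In E0771, NS11021 gave more Ccn4 and Ccn5 than BMS204352, in addition to Ccn2, 1.42-fold (log2 0.51 ± 0.07, edgeR adjusted p = 0.00011) and 1.90-fold (0.93 ± 0.16, edgeR adjusted p = 0.00141). These 3 of 4 calls compare with 1.76% of all genes. With only the 6 libraries compared, none of the 3 passed (adjusted p = 0.217 for Ccn2, 0.0512 for Ccn4 and 0.12 for Ccn5), and 0 genes passed in all. Ccn1 differed by 0.67 ± 0.18, which did not pass (edgeR adjusted p = 0.09) but did with DESeq2 (0.0161), with a replicate block (0.000148) and without BMS204352 replicate 2 (0.00385). Over KCl, NS11021 gave more of all 4 genes than BMS204352 (4.96% of all genes called). Ccn5 was 2.63-fold higher (1.39 ± 0.14, edgeR adjusted p = 1.40e-07), Ccn4 1.41-fold (0.50 ± 0.07, edgeR adjusted p = 3.62e-05) and Ccn1 1.74-fold (0.80 ± 0.19, edgeR adjusted p = 0.0283). The Ccn1 call was lost without KCl+NS11021 replicate 1 (0.111) or 2 (0.108) or KCl+BMS204352 replicate 2 (0.085) or 3 (0.0994).

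In AT-3, NS11021 gave 1.54-fold more Ccn4 (0.62 ± 0.14, edgeR adjusted p = 0.0336) and 1.30-fold more Ccn5 (0.38 ± 0.09, edgeR adjusted p = 0.0202) than BMS204352, with 2.94% of all genes called. Both calls were lost without BMS204352 replicate 3 (adjusted p = 0.199 and 0.0945), NS11021 replicate 1 (0.125 and 0.0874) or NS11021 replicate 3 (0.128 and 0.121), without the 4 BMS204352 libraries numbered 3 (0.191 and 0.064) and with only the libraries compared (0.141 and 0.188). The Ccn4 call was also lost without BMS204352 replicate 2 (0.0703) and without a filter on low counts (0.0685). Over KCl, 0 of 4 genes passed by edgeR between the compounds in AT-3, with 0.454% of all genes called. None had an unadjusted p below 0.05, and DESeq2 called 0. The 95% interval for Ccn2 there ran from −0.20 to 0.95.

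**Figure D3:**
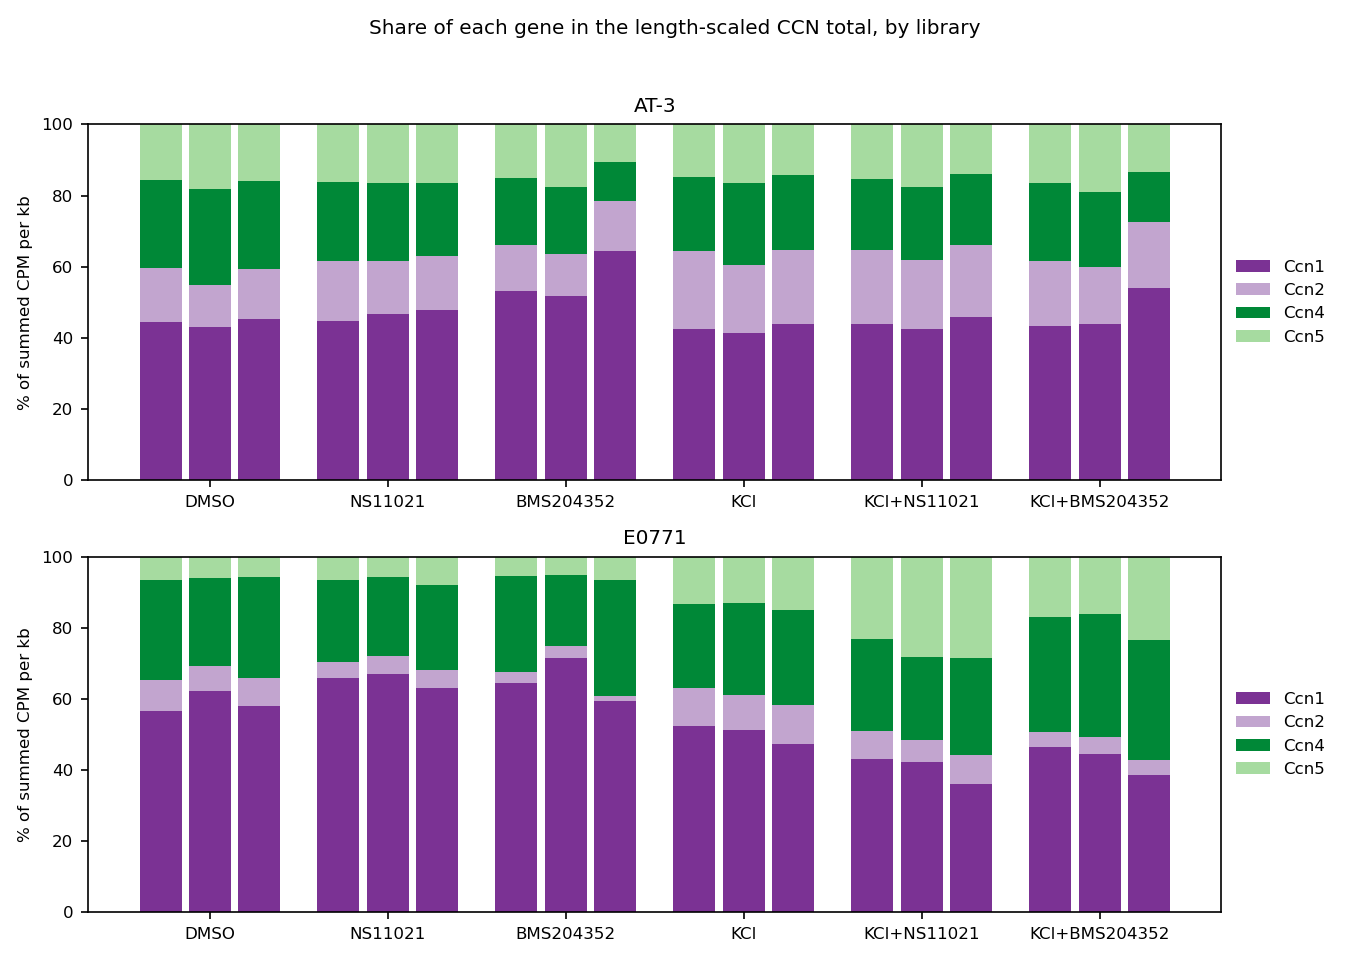
Share of each CCN gene (vertical axes, percent) in the summed CPM per kilobase of exon of the 4 genes, 1 bar per library, in AT-3 (upper) and E0771 (lower) by treatment. The share of Ccn5 in E0771 is 6.15% on average with DMSO and 26.6% with KCl+NS11021, while in AT-3 the library numbered 3 of BMS204352 has the largest Ccn1 share, 64.5%.

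The makeup of the family followed these changes. In E0771 the length-scaled share of Ccn5 was 6.15 ± 0.489% with DMSO, 13.8 ± 1.08% with KCl and 26.6 ± 2.97% with KCl+NS11021 (SD, n = 3), with no overlap between the 3 groups. The share of Ccn2 was 7.94 ± 0.917% with DMSO and 2.65 ± 1.19% with BMS204352. The total over the 4 genes was 26.7 ± 0.584 CPM per kilobase with DMSO, 37.3 ± 2.84 with NS11021 and 14.99 ± 0.920 with KCl+BMS204352, the groups with the highest and lowest totals. KCl and KCl+NS11021, at 27.6 ± 2.40 and 27.6 ± 2.02, had totals near that of DMSO with a different makeup. In AT-3 the share of Ccn5 stayed between 14.4 and 16.5% in the means of the 6 groups.

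Ccn3 (older name Nov), which binds integrins like its relatives, was scarce except in 2 AT-3 groups. DMSO libraries of AT-3 had 1.98, 1.69 and 1.86 CPM, NS11021 libraries 2.30, 1.35 and 1.85 CPM and KCl libraries 0.346, 1.17 and 0.788 CPM. KCl+NS11021 libraries had 1.28, 1.25 and 1.60 CPM. All libraries of KCl and of KCl+NS11021 lay below DMSO, but the log2 changes of −1.25 and −0.41 did not pass. With BMS204352 the values were 6.04, 6.32 and 57.5 CPM, or 278, 290 and 2768 counts, all above DMSO. The highest is the library numbered 3, which stood apart. The change was 3.68 ± 0.996 on the log2 scale and did not pass (edgeR adjusted p = 0.0529). KCl+BMS204352 gave 1.79, 2.11 and 14.7 CPM, where the library numbered 3 again lay apart (1.76 ± 0.97, edgeR adjusted p = 0.265). In E0771 Ccn3 had at most 16 counts in a library and fell short of the filter of that line. It was lower than in AT-3 by 3.70 on the log2 scale in DMSO (−3.70 ± 1.07, edgeR adjusted p = 0.0032). Ccn6 had at most 8 counts in an AT-3 and 10 in an E0771 library and was tested in neither line.

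**Figure D4:**
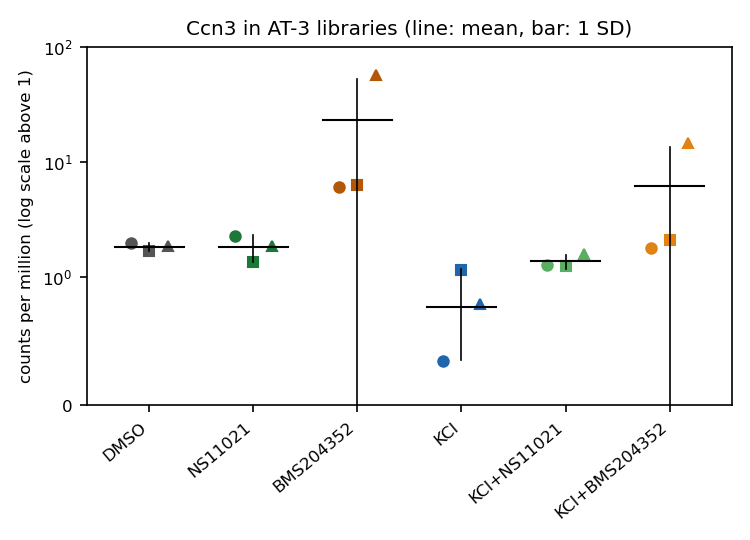
CPM of Ccn3 in the 18 AT-3 libraries (vertical axis, linear to 1 and logarithmic above) by treatment, with marker shapes for library numbers 1 (circle), 2 (square) and 3 (triangle), a line for the mean and a bar for 1 SD of 3 libraries. The BMS204352 and KCl+BMS204352 libraries numbered 3, at 57.5 and 14.7 CPM, lie above all others.

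The transcripts of the regulators above the CCN genes were abundant in both lines. In DMSO, Yap1 stood at 186 ± 5.66 CPM in AT-3 and 180 ± 4.24 in E0771 (SD, n = 3), and Wwtr1, which encodes TAZ, at 148 ± 4.53 and 127 ± 4.39. Mrtfa stood at 86.3 ± 7.71 and 61.8 ± 4.20 CPM, and Srf at 98.5 ± 10.4 and 136 ± 3.78. Srf, unlike the CCN genes, was the higher in E0771. In AT-3, 7 of 15 genes of the YAP, TAZ, TEAD and Hippo kinase list rose with KCl and 0 fell, led by Wwtr1 (log2 0.41 ± 0.06), the TEAD cofactor Vgll4 (0.35 ± 0.06) and Tead3 (0.37 ± 0.08). The list's median change was 0.22, against −0.004 over all genes, of which 4.83% were called. In E0771, 6 of the 14 tested rose with KCl and 3 fell, where 36.4% of all genes were called, Tead1 (0.43 ± 0.07) among the former and Nf2 (−0.32 ± 0.05) and Tead4 (−0.37 ± 0.05) among the latter. Both compounds lowered Yap1 and raised Wwtr1 in E0771, with log2 changes of −0.24 ± 0.04 and 0.35 ± 0.05 for NS11021 and of −0.22 ± 0.04 and 0.35 ± 0.05 for BMS204352.

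Other TEAD targets moved in both directions. Of 20 listed genes without the CCN members, 15 were tested in E0771, and 5 were higher and 4 lower with BMS204352 (median 0.02, and 0.002 over all genes, 22.7% of them called). Among those lower were Amotl2, a YAP-binding scaffold (−1.08 ± 0.08), and the Hippo kinase gene Lats2 (−0.40 ± 0.07). Nt5e, which makes adenosine at the cell surface, was higher (0.49 ± 0.08). NS11021 gave 6 higher and 3 lower (26.3% of all genes called), with Nt5e (0.61 ± 0.08) and Crim1 (0.38 ± 0.06) up and Amotl2 down (−0.51 ± 0.08). KCl gave 5 higher and 3 lower (36.4%), with Dock5 (0.79 ± 0.08) and Arhgef17 (0.63 ± 0.06) up and Nt5e (−0.85 ± 0.08) down. KCl+BMS204352 gave 3 higher and 4 lower (28.6%), and there Amotl2 (−0.78 ± 0.08) and Lats2 (−0.36 ± 0.07) were lower with Ccn1 and Ccn2 while Dock5 (0.45 ± 0.08) was higher. In AT-3, 2 of 20 rose with KCl, Crim1 (0.44 ± 0.07) and Igfbp3 (0.45 ± 0.12), and 0 fell (median 0.21, 4.83% of all genes called). With BMS204352 Axl rose (0.78 ± 0.17) and Nuak2 fell (−0.60 ± 0.16).

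**Figure D5:**
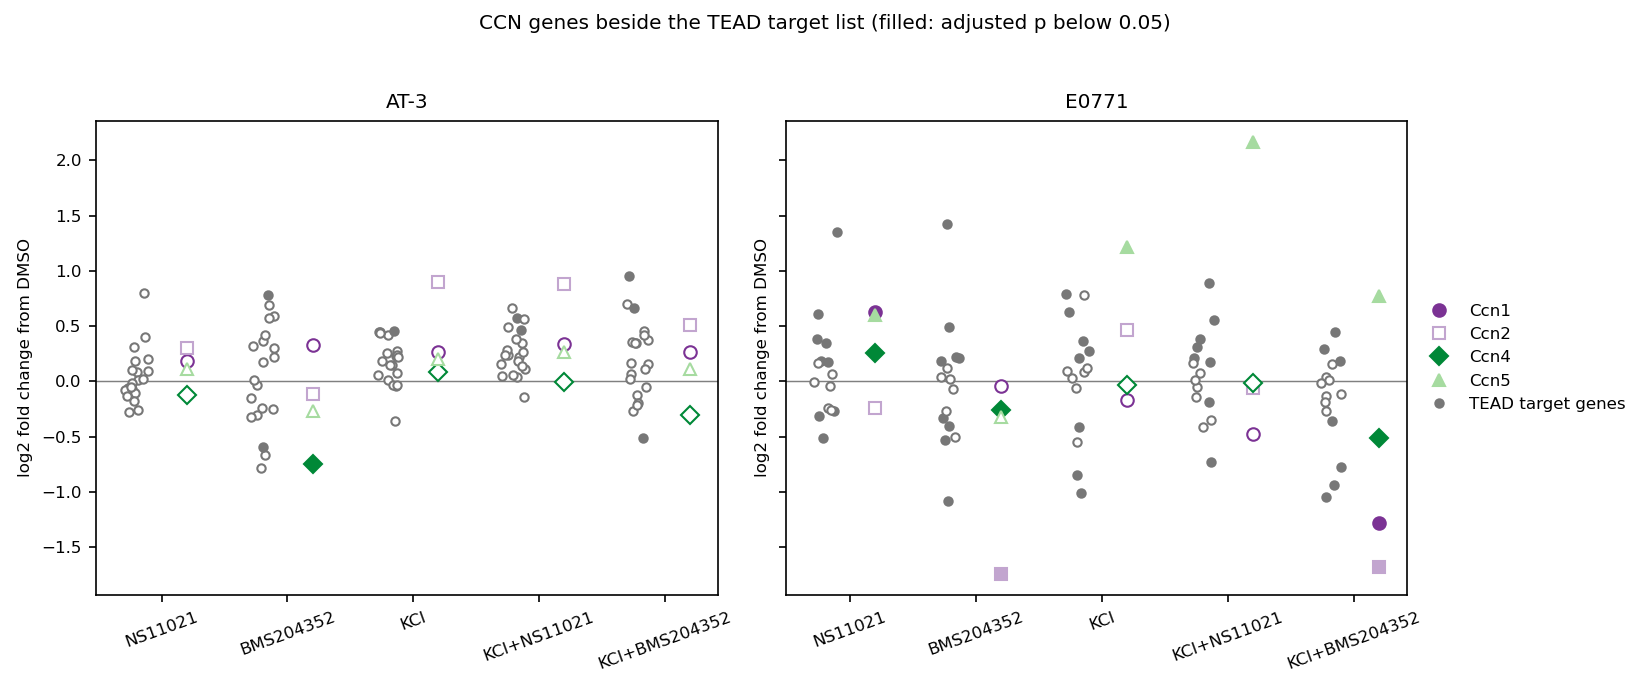
Log2 fold change from DMSO (vertical axes) of the CCN genes (coloured) and of the tested genes of the TEAD target list (grey) for 5 treatments in AT-3 (left) and E0771 (right); filled points passed the threshold. In E0771, Ccn2 with BMS204352 (−1.74) lies below the lowest TEAD target of that treatment, Amotl2 (−1.08), and Ccn5 with KCl+NS11021 (2.17) above the highest, Dock5 (0.89).

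MRTF and SRF genes were counted in the same way. In AT-3, 7 of 22 rose with KCl and 0 fell, led by Filip1l (0.95 ± 0.11), the LIM protein gene Csrp1 (0.55 ± 0.08) and Mrtfa (0.52 ± 0.10), with a list median of 0.39 and 4.83% of all genes called. KCl+NS11021 gave 8 higher and 0 lower (median 0.43, 5.03% of all genes called) and KCl+BMS204352 4 and 0 (median 0.07, 13.1%), beside 0.90, 0.88 and 0.51 for Ccn2 in the 3 groups, none of which passed. These groups share their DMSO libraries. In E0771, where 22 were tested, KCl gave 7 higher and 3 lower (36.4% of all genes called), with Filip1l (1.18 ± 0.13), the caldesmon gene Cald1 (0.37 ± 0.05) and the myosin light chain gene Myl9 (1.48 ± 0.23) up. KCl+BMS204352 gave 3 higher and 7 lower (28.6%), with Actb (−0.24 ± 0.04) and the tropomyosin gene Tpm1 (−0.49 ± 0.08) down and Mrtfa up (0.29 ± 0.07). NS11021 gave 7 higher and 0 lower there (26.3%), with Pdlim5 (0.43 ± 0.06), smooth muscle actin Acta2 (0.81 ± 0.13) and Fhl2 (0.34 ± 0.08).

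Of the 11 TGF-beta and SMAD targets tested in E0771, 1 rose and 3 fell with KCl, where 36.4% of all genes were called. Among those that fell were Tgfbi, which encodes a secreted matrix protein (−0.80 ± 0.07), and the collagen gene Col1a1 (−1.06 ± 0.13). Both also fell with KCl+NS11021 (−0.47 ± 0.07 and −1.25 ± 0.13), where 3 of the 11 rose and 3 fell (38.6% of all genes called). In AT-3 with KCl, Pmepa1 (0.40 ± 0.07) and Skil (0.29 ± 0.07) rose and 0 of the 13 tested fell (4.83% of all genes called). The Wnt list, to which Ccn4 relates, held 1 call of 12 tested with BMS204352 in AT-3 (5.27% of all genes called), the inhibitor gene Nkd2 (higher, 0.42 ± 0.12). It held 2 of 9 in E0771 (22.7% of all genes called), Ccnd1 lower (−0.24 ± 0.05) and Myc higher (0.37 ± 0.07). With KCl in E0771, where Ccn5 rose, 1 of the 9 was higher and 4 lower (36.4% of all genes called). With KCl+NS11021 there, 0 were higher and 2 lower (38.6%).

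Of 11 genes for CCN receptors tested in E0771, 4 rose and 2 fell with KCl (36.4% of all genes called), led by the integrin genes Itgav (0.60 ± 0.05), Itga6 (−0.59 ± 0.05) and Itgb1 (0.27 ± 0.03). NS11021 raised 6 and lowered 0 (26.3%), with Itga6 (0.41 ± 0.05), Itgb3 (1.06 ± 0.16) and Itga5 (0.21 ± 0.05), and BMS204352 raised 4 and lowered 1 (22.7%). In AT-3, where 11 were tested too, KCl raised Itgb5 (0.39 ± 0.06) alone (4.83% of all genes called). There BMS204352 raised Itga6 (0.36 ± 0.07), the syndecan gene Sdc4 (0.37 ± 0.09) and Itgb3 (1.35 ± 0.28), with 5.27% of all genes called. Of 9 other matricellular genes tested in E0771, 3 rose and 2 fell with KCl (36.4% of all genes called), and 3 rose and 3 fell with KCl+NS11021 (38.6%), the groups in which Ccn5 was highest. Spp1, which encodes osteopontin, rose in both (1.90 ± 0.06 and 1.62 ± 0.06), and Thbs3 fell (−0.49 ± 0.07 and −0.42 ± 0.07). In AT-3, where 10 were tested, Tnc (0.47 ± 0.09) and Postn (0.63 ± 0.15) rose with KCl and 0 fell (4.83% of all genes called), and Tnn (1.42 ± 0.40) and Spp1 (1.05 ± 0.28) rose with BMS204352 and 0 fell (5.27%).

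Likeness was measured as Pearson's r of log2 CPM over the 18 libraries of a line, which share treatment groups, and is given as a description. In AT-3 the genes most like Ccn2 were Fhl2 (r = 0.963), Cald1 (0.955) and Cited2 (0.948), and those most like Ccn1 were Htra1 (0.964), Wdr1 (0.954) and Tspan4 (0.933). Ccn4 was most like Nek6 (0.942), Chodl (0.940) and Ssbp2 (0.937), and Ccn5 like Hs6st1 (0.952), Nf2 (0.931) and Pdgfb (0.930). In E0771, Ccn5 was most like Enc1 (0.971), Tpp1 (0.954) and Renbp (0.949), and 9.38% of the 9739 genes compared had an r over 0.7 with it. Ccn2 was most like Esx1 (0.932), Amotl2 (0.926) and Sh3bp4 (0.912), Ccn1 like Actr3 (0.928), Emp1 (0.922) and Diaph3 (0.893), and Ccn4 like Serpinb9b (0.883), Actn1 (0.874) and Anxa3 (0.871). No gene was among the 3 most like the same CCN gene in both lines.

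The CCN genes also paired differently with one another in the lines. Ccn4 and Ccn5 had r = 0.842 in AT-3 and 0.146 in E0771, and Ccn1 and Ccn4 had −0.006 and 0.788. Ccn1 and Ccn2 had 0.651 and 0.442, and Ccn2 and Ccn5 0.790 and 0.453. The lowest value in E0771 was that of Ccn1 and Ccn5, −0.278, against 0.218 in AT-3. These r values rest on 18 libraries in 6 groups each, and no test was made of their differences.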

How the data were processed

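Libraries of poly(A) RNA from 36 cell-line samples were prepared with Qiagen RNeasy and NuGen Universal Plus mRNA, per the labels' protocols. The authors deposited 1 table of raw read counts per gene, from STAR and featureCounts on GRCm38 per the submitters' processing notes. Versions and the strand setting: not given in the sources used here. Each of the 36 columns matched a sample by its title. The table also held 2 IDs that were not mouse (6 counts, left out), and 127 IDs without a symbol in GENCODE vM21 (0.0415% of counts). Of the counts from 1 to 10, 84.5% were even, so the tests were repeated on halved counts. No CCN call changed with them. Counts and library totals in this text are as deposited, not halved, and the cause of the even numbers was not tested.

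From these counts came CPM, length-scaled shares and all tests (R 4.3.3, edgeR 4.0.16, DESeq2 1.42.0). filterByExpr kept genes by a minimum count of 10 and a minimum total of 15, and TMM factors were 0.979 to 1.02. Each line had its own robust quasi-likelihood fit in edgeR over its 18 libraries (14772 genes in AT-3, 13357 in E0771, common dispersions 0.0136 and 0.005), and comparisons of lines used 1 fit of all 36 (15969 genes). Benjamini-Hochberg adjustment ran over all genes within each of 26 comparisons. After ± stands the SE for log2 changes and the SD of 3 libraries for CPM and shares, and they cover the spread between libraries only.

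The CCN members and gene lists were chosen with earlier results of these data known. Besides the members, the text names up to 3 genes per list and treatment against DMSO, those of smallest adjusted p past the threshold, fewer where space was short. It also names Yap1, Wwtr1, Mrtfa and Srf, and the 3 genes most like each member where mean log2 CPM reached 2. Ccn3 was described for every AT-3 group. Marker genes were named from their lists. A result for 1 listed gene is not reported here. The alternatives were the Wald test of DESeq2, its size factors in edgeR, no low-count filter, a filter of 1 CPM in 3 libraries, a replicate block, a fit of only the libraries compared, halved counts, a fit without the 4 BMS204352 libraries numbered 3 and fits without each library in turn. Those 4 libraries include the E0771 KCl+BMS204352 library, for which no component value is given here. Its Ccn2, at 1.74 CPM, lay near the 1.95 and 2.02 CPM of its partners. The others of the set stood apart in these same data, so that fit was not chosen independently of them. Equal library numbers were not treated as pairs in the main fits, because over 18 comparisons the deviations of same-numbered libraries from their group means correlated at −0.0325 to 0.0925, below the limit of 0.1. These correlations run over all genes and cannot exclude an effect of library number on single genes. For Ccn1, number 2 was the lowest in 6 of 6 AT-3 groups and number 3 in 6 of 6 E0771 groups.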

Additional observations from a re-analysis of the deposited data

Results flagged for a closer look

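The effect of KCl on Ccn5 differed between the lines by a test of the difference itself. The log2 change was 1.21 ± 0.15 in E0771 and 0.21 ± 0.09 in AT-3, and the difference was 0.9995 ± 0.16 (edgeR adjusted p = 4.13e-05). All 3 E0771 libraries given KCl lay above the DMSO libraries, while the AT-3 groups overlapped.

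The effect of BMS204352 on Ccn2 differed between the lines by the same kind of test. The log2 change was −1.74 ± 0.25 in E0771 and −0.11 ± 0.27 in AT-3, and the difference was −1.6479 ± 0.43 (edgeR adjusted p = 0.0217). It did not pass without the 4 BMS204352 libraries numbered 3 (−0.9995 ± 0.41, adjusted p = 0.224). With 30 counts, the E0771 library numbered 3 had the fewest Ccn2 counts of all.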

How the results depend on the processing

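Of 104 log2 changes of CCN genes, 32 passed the threshold. Of these, 20 passed under each of the 9 kinds of alternative and 12 lost their call under at least 1, while 18 of the 72 others passed under at least 1. No called change turned its sign. The causes of these changes were not tested, and fits that left libraries out also rested on fewer libraries.

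The counts of CCN genes past the threshold that moved included these. With DESeq2 the AT-3 count was 1 instead of 0 for KCl and for KCl+NS11021 and 2 instead of 1 for BMS204352. In E0771 it was 2 instead of 1 for KCl+NS11021 and 1 instead of 0 for both interactions, and for the line difference it was 1 instead of 0 with NS11021 and 2 instead of 1 with BMS204352. Without a low-count filter, NS11021 against BMS204352 in AT-3 had 1 instead of 2, and E0771 had 2 instead of 1 for KCl and for KCl+NS11021 against KCl. With DESeq2, NS11021 against BMS204352 in E0771 had 4 instead of 3. A filter of 1 CPM gave 2 instead of 1 for KCl+NS11021 in E0771. Over all genes DESeq2 called 1375 instead of 779 with BMS204352 in AT-3 and 5368 instead of 5158 with KCl+NS11021 in E0771. It called 350 instead of 235 for NS11021 against BMS204352 in E0771 and 1296 instead of 799 for the line difference with BMS204352. Without a low-count filter, 4808 genes instead of 4860 passed with KCl in E0771.

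Same-numbered libraries share only a number, and in 9 of 18 comparisons each correlated best with its own number, a hint from the data and not from the design. Most of those comparisons were in AT-3. With the replicate block the AT-3 count was 1 instead of 0 for KCl, KCl+BMS204352, KCl+BMS204352 against KCl and KCl+NS11021 against KCl+BMS204352, 3 instead of 0 for KCl+NS11021 and 2 instead of 1 for BMS204352. Over all genes the block called 1124 instead of 714 with KCl, 2711 instead of 1941 with KCl+BMS204352 and 1258 instead of 743 with KCl+NS11021. With BMS204352 it called 1455 instead of 779. It called 619 instead of 183 for KCl+BMS204352 against KCl and 303 instead of 67 for KCl+NS11021 against KCl+BMS204352. In E0771 the block gave 2 instead of 1 for KCl+NS11021 against DMSO and against KCl and 1 instead of 0 for both interactions, and it gave 2 instead of 1 for the line difference with BMS204352. Over all genes the block gave 5342 instead of 5158 and 2627 instead of 2303 for the 2 KCl+NS11021 comparisons. It gave 53 instead of 29 for the interaction with NS11021, 335 instead of 217 for that with BMS204352 and 1313 instead of 799 for the line difference. For NS11021 against BMS204352 the block gave 3 instead of 2 in AT-3, adding Ccn2 (adjusted p = 0.0106), and 4 instead of 3 in E0771, adding Ccn1 (0.000148). Over all genes that comparison had 893 instead of 434 in AT-3 and 351 instead of 235 in E0771. The block moved Ccn2 in AT-3 from an adjusted p of 0.0842 to 6.74e-06 with KCl, from 0.0862 to 8.18e-06 with KCl+NS11021 and from 0.246 to 0.0012 with KCl+BMS204352. It also called Ccn1 with KCl+NS11021 in AT-3 (0.34 ± 0.10, adjusted p = 0.0468).

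Without the 4 BMS204352 libraries numbered 3, the AT-3 count was 1 instead of 0 for KCl, 0 instead of 1 for BMS204352, 2 instead of 0 for KCl+NS11021 and 0 instead of 2 for NS11021 against BMS204352. In E0771 it was 2 instead of 1 for KCl, KCl+NS11021 and KCl+NS11021 against KCl, and 1 instead of 0 for both interactions. For the line difference it was 1 instead of 0 with NS11021 and 0 instead of 1 with BMS204352. Over all genes this fit called 1345 instead of 714 with KCl and 1611 instead of 743 with KCl+NS11021 in AT-3. It called 237 instead of 29 for the interaction of KCl and NS11021 in E0771. For the line difference with NS11021 it called 1206 instead of 637. With only the libraries compared, the count of CCN genes was 0 for BMS204352, 1 for KCl+NS11021 and 0 for NS11021 against BMS204352 in AT-3. In E0771 it was 2 for KCl, 1 for BMS204352, 2 for KCl+NS11021, 3 for KCl+NS11021 against KCl, 0 for NS11021 against BMS204352 and 1 for the interaction of KCl and NS11021, and it was 0 for the line difference with BMS204352. Over all genes, the AT-3 counts were 10 instead of 779, 1440 instead of 743 and 14 instead of 434, in the same order. The E0771 counts were 5659 instead of 4860, 2037 instead of 3028, 5724 instead of 5158 and 3414 instead of 2303. Then came 0 instead of 235 and 235 instead of 29, and the line difference had 141 instead of 799. Leaving out 1 library gave 0 to 2 CCN genes for BMS204352 and for NS11021 against BMS204352 in AT-3, 1 to 2 for BMS204352 and 0 to 1 for the interaction of KCl and BMS204352 in E0771, and 0 to 2 for the line difference with BMS204352.

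Small changes that never passed turned their sign, 22 in all, and none reached a size above 0.1635 after turning. With 1 library left out, the AT-3 ranges of log2 change were −0.02633 to 0.1594 for Ccn4 with KCl, −0.327 to 0.06149 for Ccn2 with BMS204352, −0.09611 to 0.08314 for Ccn4 with KCl+NS11021 and −0.03264 to 0.4315 for Ccn1 with KCl+BMS204352. For KCl+NS11021 against KCl they were −0.07426 to 0.2211 for Ccn1, −0.1866 to 0.1104 for Ccn2, −0.1691 to 0.01894 for Ccn4 and −0.01773 to 0.1343 for Ccn5. Ccn1 ranged from −0.3005 to 0.1635 for KCl+BMS204352 against KCl, from −0.3347 to 0.1324 for NS11021 against BMS204352 and from −0.09904 to 0.3652 for KCl+NS11021 against KCl+BMS204352. For the interaction of KCl and NS11021 the ranges were −0.2501 to 0.0452 for Ccn1, −0.04401 to 0.144 for Ccn4 and −0.1383 to 0.02439 for Ccn5. In E0771 they were −0.09595 to 0.01754 for Ccn4 with KCl, −0.2525 to 0.133 for Ccn1 with BMS204352, −0.1533 to 0.0476 for Ccn2 and −0.08544 to 0.03043 for Ccn4 with KCl+NS11021, and −0.02203 to 0.03425 for Ccn4 with KCl+NS11021 against KCl. Line differences ranged from −0.1728 to 0.008541 for Ccn4 with KCl and from −0.1115 to 0.03288 for Ccn5 with BMS204352. Without the 4 BMS204352 libraries numbered 3, Ccn1 changed by −0.0296 with KCl+BMS204352 and by 0.1322 for NS11021 against BMS204352 in AT-3, by 0.133 with BMS204352 in E0771, and by 0.08903 for the line difference with BMS204352.

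Counts over all genes moved by more than 1.5 times in 17 comparisons. In AT-3 they were 714 (393 to 1345) for KCl, 11 (0 to 146) for NS11021, 779 (10 to 1743) for BMS204352, 743 (363 to 1611) for KCl+NS11021, 1941 (893 to 2711) for KCl+BMS204352, 3 (0 to 39) for KCl+NS11021 against KCl, 183 (20 to 619) for KCl+BMS204352 against KCl, 434 (14 to 1070) for NS11021 against BMS204352, 67 (4 to 303) for KCl+NS11021 against KCl+BMS204352 and 0 (0 to 6) for the interaction of KCl and BMS204352. In E0771 they were 2663 (1759 to 2985) for KCl+BMS204352 against KCl, 235 (0 to 419) for NS11021 against BMS204352, 663 (356 to 1081) for KCl+NS11021 against KCl+BMS204352, 29 (6 to 237) for the interaction with NS11021 and 217 (83 to 415) for that with BMS204352. Line differences were 637 (270 to 1206) for NS11021 and 799 (141 to 1313) for BMS204352. Depth limits the precision of Ccn2 in E0771, which had as few as 30 counts in a library.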
